A study of Homo sapiens with 4 samples.

Results

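The iron genes described here are 10 protein-coding genes of iron uptake, storage, regulation and export: TFRC, SLC11A2, SLC25A37, FTH1, FTL, NCOA4, IREB2, ACO1, HMOX1 and SLC40A1. They were taken by symbol from the deposited gene models, which held all 10 among 60651 genes, of which 19872 were nuclear protein-coding genes. Ribosome footprints, the short RNA fragments protected from nuclease by ribosomes, had been sequenced from 4 leukemia lines of human origin, 1 library for each. K562, derived from the blast crisis of a chronic myeloid leukemia, and HL60, from an acute promyelocytic-like leukemia, were grown in IMDM. THP_1, from an acute monocytic leukemia, was grown in RPMI1640 with 2-mercaptoethanol, and MOLM13, also labelled as a leukemia line, in DMEM. All media held fetal bovine serum, all lysates held cycloheximide, and no line carried a treatment, so medium and line cannot be told apart. No replicate checks any difference between lines, and no p-value is given. No RNA library was analysed here, so RNA amount and ribosomes per RNA cannot be told apart, nor can RNA per cell and the share of cells that held it.

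Cells take up iron mainly as transferrin through the transferrin receptor, export it from endosomes to the cytosol, use it in mitochondria for heme and iron-sulfur clusters, and keep the rest inside ferritin shells. Iron regulatory proteins bind a hairpin called the iron-responsive element when iron is scarce. Bound in the 5′ untranslated region (UTR), as in ferritin transcripts, the proteins block translation, and bound in the 3′ UTR, as in the transferrin receptor transcript, they protect the RNA from decay. Erythroid cells import large amounts of iron for hemoglobin, while macrophages recover iron from heme and export it.

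The elements are printed first, since a match lay in the 5′ UTR of some members and in the 3′ UTR of others. Whether a match controls its transcript was not tested. A search of the sense strand of GENCODE release 29 protein-coding transcripts found matches in the UTRs of 6 of the 10 genes, with SLC25A37 not assessed. It asked for an unpaired c, at least 3 of the 5 base pairs below it, 5 pairs above it, and the loop CAGTGN, with G-U pairs allowed. SLC11A2 and IREB2 matched only a form with 1 extra unpaired base on the 3′ side of the stem, which was added to the search after SLC11A2 gave no plain match. Either form was present in 133 of 19524 protein-coding genes, or 0.681%. Several of the 10 genes were chosen because they are known for this element, so their share is a description. Capitals mark the 6-base loop, and each sequence is on the transcript strand, 5′ to 3′, as DNA letters from GENCODE. For TFRC, nearest to farthest ranks the matches of this search only.
FTH1, 5′ UTR: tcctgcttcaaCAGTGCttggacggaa
FTL, 5′ UTR: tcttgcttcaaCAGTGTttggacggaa
SLC40A1, 5′ UTR: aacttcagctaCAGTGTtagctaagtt
TFRC, 3′ UTR, nearest the coding region: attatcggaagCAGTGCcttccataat
TFRC, 3′ UTR, next: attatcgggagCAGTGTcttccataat
TFRC, 3′ UTR, next: tgtatcggagaCAGTGAtctccatatg
TFRC, 3′ UTR, farthest: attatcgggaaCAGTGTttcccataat
SLC11A2, 3′ UTR: gccatcagagcCAGTGTgtttctatggt
IREB2, 3′ UTR: atttgctttcaCAGTGAtgagtgagagg

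On hg38 the FTH1 element was at chr11:61967575-61967601 and the FTL element at chr19:48965336-48965362, each in exon 1 of its gene. The SLC40A1 element was at chr2:189580662-189580688, also in exon 1. The 4 TFRC matches lay in the last exon, between chr3:196050464-196050490 and chr3:196050980-196051006. The search asked for the loop CAGTGN, so it would miss an element with another loop, and 4 need not be all that TFRC holds. The SLC11A2 element was at chr12:50988269-50988296, in a 3′ exon that only some transcripts of the gene use, and the IREB2 match at chr15:78500970-78500997. The IREB2 match had 3 lower pairs, the fewest the search allowed. No match in ACO1, NCOA4 or HMOX1 says only that these letters were not in the UTRs searched. For SLC25A37 nothing can be said, since matches on its chromosome were left out.

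Levels are given as scaled TPM, the deposited TPM summed over a gene's transcripts and divided by a factor per library that makes the median gene alike between libraries. TPM divides by the length of the whole transcript, UTRs included, so a comparison between genes also moves with how much of each transcript is untranslated. Coverage of exons that are coding only, summed over transcripts, is given beside it where the order changes. Aligned depth ran from 344 megabases in the MOLM13-labelled library to 973 in HL60, or 11.9 to 33.6 footprints in units of 1000000 at the modal length of 29 bases. Intervals in the text are 95% Poisson intervals of these footprint equivalents and cover counting error only. The lines were checked against marker lists. Erythroid markers summed to 14971 scaled TPM in K562 and to 3.81, 17.3 and 6.55 in THP_1, the MOLM13-labelled library and HL60. Monocyte markers summed to 3653 in THP_1, with 8 of 8 above 0, and to 734 in HL60, also with 8 of 8. Granule markers summed to 8243 in THP_1 and 9249 in HL60, so both lists were higher in THP_1 and HL60 than in the other libraries. The part of these cell type differences in the levels of the iron genes was not tested. The MOLM13-labelled library went against a monocytic label: its monocyte markers summed to 18.1, with CD68, CSF1R, FCGR2A and ITGAM listed at 0, while CD3D of the T cell receptor complex stood at 891. Its file also carries a name other than its label, so it is called by its label throughout, and the counts over all pairs are also given without it.

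Across the 10 genes, FTH1, HMOX1, ACO1 and SLC40A1 differed most between lines, and FTL differed least. A gene is called apart between a pair of lines when log2(scaled TPM + 1) differs by at least 2 and the higher line has at least 600 aligned bases. By that rule 4 of the 10 genes were apart in at least 1 of the 6 pairs, beside 36.6% of protein-coding genes, and the share is near that background. The median range over the lines was 1.69 log2 units for the 10 genes and 1.57 over 12582 protein-coding genes. In the 3 pairs without the MOLM13-labelled library, 3 of the 10, FTH1, HMOX1 and SLC40A1, were apart, beside 28.6% of protein-coding genes.

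**Figure D1:**
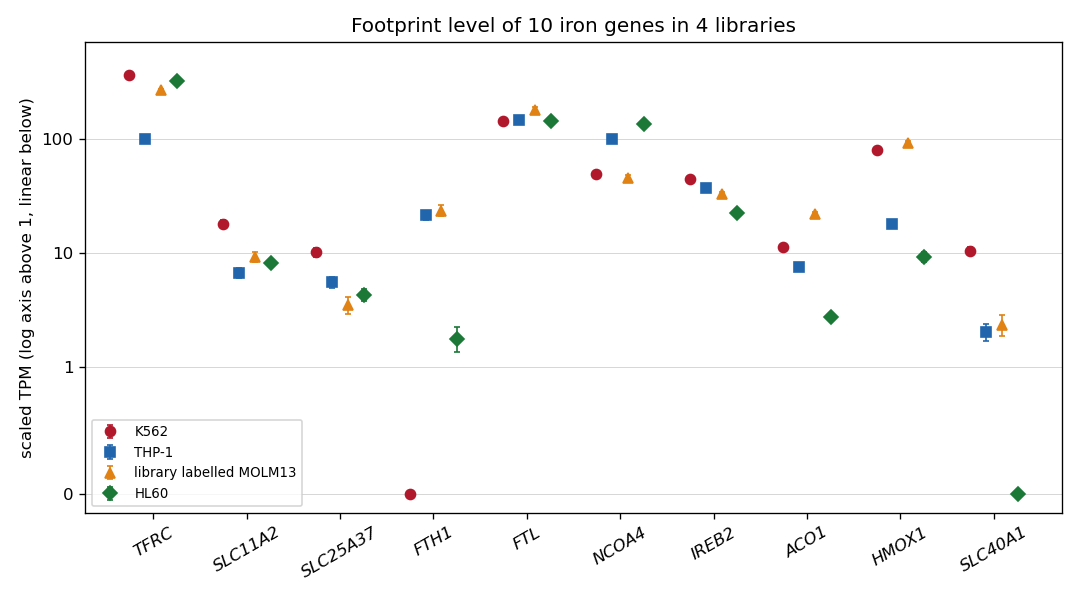
Scaled TPM (vertical, logarithmic above 1 and linear below) of the 10 iron genes (horizontal) in the 4 libraries, with 1 point per library and bars for the 95% Poisson interval of footprint equivalents. FTL lay between 143 and 180 in every line, while FTH1 was listed at 0 in K562 and SLC40A1 at 0 in HL60.

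Between K562 and THP_1, 2 of the 10 genes were apart, beside 20.1% of protein-coding genes. HMOX1 was higher in K562, as were 6.39% of protein-coding genes, and FTH1 was higher in THP_1, as were 13.7%. Between K562 and the MOLM13-labelled library only FTH1 was apart, beside 15.6%. It was higher in the latter, as were 9.93%, and no iron gene was higher in K562, as were 5.7%. HMOX1 and SLC40A1 were higher in K562 than in HL60, 2 of 10 genes beside 20% apart and 9.04% higher in K562, and no iron gene was higher in HL60, as were 11%. HMOX1 was the 1 gene apart between THP_1 and the MOLM13-labelled library, beside 17.9%. It was higher in the latter, as were 7.3%, and no iron gene was higher in THP_1, as were 10.6%. FTH1 was the 1 gene apart between THP_1 and HL60, beside 11.1%. It was higher in THP_1, as were 7.66%, and no iron gene was higher in HL60, as were 3.44%. Between the MOLM13-labelled library and HL60, FTH1, ACO1 and HMOX1 were apart, beside 18.6%. All 3 were higher in the former, as were 10.5%, and no iron gene was higher in HL60, as were 8.09%. These pairs share libraries and are not independent of each other.

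**Figure D2:**
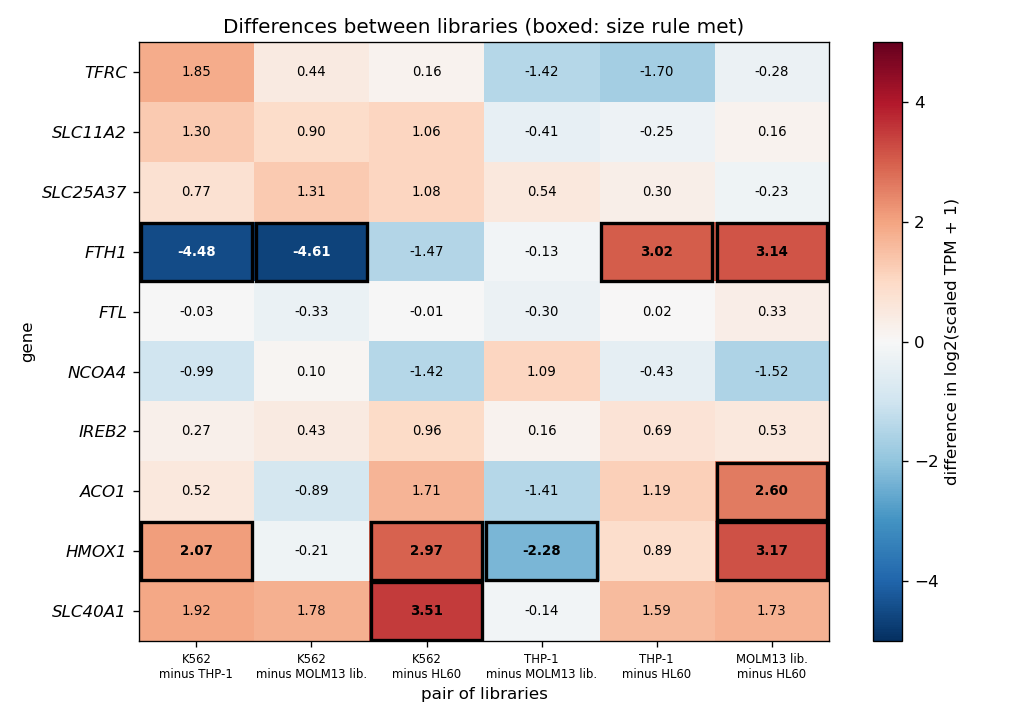
Difference in log2(scaled TPM + 1) for the 10 iron genes (rows) in the 6 pairs of libraries (columns), with the first library of each pair minus the second, red where the first was higher. Boxes mark the 10 of 60 differences that met the size rule, which lie in the rows of FTH1, HMOX1, ACO1 and SLC40A1.

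TFRC encodes the transferrin receptor that carries iron-loaded transferrin into the cell. Its scaled TPM was 360 in K562, 99.0 in THP_1, 266 in the MOLM13-labelled library and 323 in HL60. The level was thus lowest in THP_1 and close together in the other 3 lines. K562 stood 3.64-fold above THP_1 and 1.12-fold above HL60. The difference of 1.85 log2 units between K562 and THP_1 lay just under the size rule. It passed the rule when TPM was rescaled over protein-coding genes only. TFRC was also the most strongly read member by aligned bases, and in all 4 lines its level was above that of 94.6% or more of protein-coding genes.

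Along the TFRC transcript the footprints lay on the coding exons. The median coverage per base of the 16 exons that are coding only was 147 in K562, 71.9 in THP_1, 104 in the MOLM13-labelled library and 377 in HL60, before any scaling between libraries. The last exon had 243 coding bases and 2658 bases of 3′ UTR that hold the 4 matched elements. Its coverage was 12.0, 6.41, 10.1 and 31.9 in the same order. Its share of the coding median, 0.0811, 0.0891, 0.0977 and 0.0845, was therefore similar in the 4 lines. Exon 2, which holds the start of the coding region, had the highest coverage in every line. None of the 29-base words of this transcript, the modal footprint length, was found in another gene.

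SLC11A2 encodes DMT1, the transporter that moves iron out of the endosome. It stood at 18.0 scaled TPM in K562, 6.71 in THP_1, 9.21 in the MOLM13-labelled library and 8.16 in HL60. K562 was 1.96-fold above the next line, and the other 3 lines lay between 6.71 and 9.21. No pair met the size rule.

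The gene has transcripts that end in the exon with the element and others that end farther downstream. Short transcripts end upstream of it and count among those without the element. In K562, ENST00000550329 and ENST00000549193 were of this kind, at 2.78 and 1.87 deposited TPM, beside 8.47 on ENST00000644495, which ends downstream. The shares below are thus not a split between the element and a downstream end. The deposited estimates divided the signal between the transcripts unequally. Of 33 transcripts, 8 held the element. They carried 7.48% of the SLC11A2 TPM in K562, 56.2% in THP_1, all of it in the MOLM13-labelled library and 47.7% in HL60. By aligned bases the shares were 11.5%, 75.0%, 100% and 75.7%. In the MOLM13-labelled library 99.0% of the aligned bases lay on ENST00000646740, annotated for nonsense-mediated decay. The exons that tell the transcripts apart held little signal. In K562 the transcript with most signal, ENST00000644495, had a coverage of 0 in its last exon at chr12:50979784-50981803 and a median of 7.25 over its inner exons. The last exon with the element in ENST00000646740 had 0.148 in K562 and 0.387 in the MOLM13-labelled library. In THP_1 the element's exon was listed at 0 in ENST00000262052, the transcript with most signal there. There ENST00000546636, which ends downstream, had 3.69 in its last exon but 1 and 0 in its last. Whether the shares follow transcript use or the division of reads between transcripts was not tested.

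SLC25A37 encodes mitoferrin 1, which brings iron into mitochondria and is most used in erythroid cells. It stood at 10.1 scaled TPM in K562, 5.51 in THP_1, 3.49 in the MOLM13-labelled library and 4.28 in HL60. K562 was 1.84-fold above the next line, with an interval of 9.26 to 11.1 against 4.97 to 6.10 in THP_1. No pair met the size rule. Coverage of coding-only exons, scaled between libraries, was listed at 2.04 units in K562, 2.61 in THP_1, 0.999 in the MOLM13-labelled library and 0.429 in HL60. In every line the deposited estimates put none of its signal on coding transcripts. In K562, 63.7% lay on ENST00000518881, annotated as a retained intron transcript. That transcript starts in the exon of the coding start, whose coverage was 18.9, 13.1, 8.05 and 6.57 in K562, THP_1, the MOLM13-labelled library and HL60. Its middle exon, which spans an intron, had 0.953, 2.74, 0.588 and 0.254. Coverage was thus highest in the first exon of this transcript in each line. The coding-only measure took in the mean coverage of the middle exon for the coding bases inside it. That measure therefore gives no order of the lines on coding bases.

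FTL encodes the light subunit of ferritin. It was listed at 143 scaled TPM in K562, 146 in THP_1, 180 in the MOLM13-labelled library and 143 in HL60. The highest level was 1.26-fold above the lowest, and the range of 0.33 log2 units was narrower than that of all but 2.34% of protein-coding genes. By scaled TPM, K562, THP_1 and HL60 could not be placed in an order, since their counting intervals overlap: 136 to 149, 140 to 152 and 139 to 148. By coverage of coding-only exons FTL stood at 74.9, 60.2, 65.8 and 58.8 scaled units in K562, THP_1, the MOLM13-labelled library and HL60. K562 was then the highest line in place of the MOLM13-labelled library. Coverage fell along the transcript from exon 1, which holds the element, to exon 4. Exon 1 had 104, 148, 123 and 217 in K562, THP_1, the MOLM13-labelled library and HL60, and exon 4 had 17.2, 40.3, 7.99 and 72.6. Of the 29-base words of the FTL coding region, 60.4% were also found in other genes, with up to 3 other genes for a word.

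FTH1 encodes the heavy subunit of ferritin, which oxidizes iron for storage. It was listed at 0 in K562 and stood at 21.3 scaled TPM in THP_1, 23.4 in the MOLM13-labelled library and 1.76 in HL60. The intervals of THP_1 and the MOLM13-labelled library, 19.5 to 23.3 and 20.9 to 26.2, overlapped. They were 12.1-fold and 13.3-fold above HL60, whose value rests on 67.1 footprint equivalents. No fold is given against K562. On the log2(scaled TPM + 1) scale K562 minus THP_1 was -4.48 and K562 minus the MOLM13-labelled library was -4.61.

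These FTH1 values cannot be read as ribosome load on the whole coding region. All 524 of its coding 29-base words were also found in other genes, with a median of 6 other genes and up to 15. All words of its 3′ UTR were shared as well, with a median of 1 other gene and up to 2, but only 10.6% of those of its 5′ UTR. The count takes other genes on either strand, so BEST1, which overlaps FTH1 exons on the opposite strand, can be among them. Words shared only with BEST1 lie at the same place in the genome and were not counted apart. Exon 1, which holds the 5′ UTR, the element and the first 114 coding bases, carried 89.5% of the aligned bases of the gene in THP_1, 65.2% in the MOLM13-labelled library and 33.7% in HL60. Its coverage was 0, 41.9, 18.4 and 2.03 in K562, THP_1, the MOLM13-labelled library and HL60. Exon 2 had 0 in K562, THP_1 and HL60 and 1.22 in the MOLM13-labelled library. By coverage of coding-only exons, summed over transcripts and scaled between libraries, FTH1 stood at 0, 2.56, 17.4 and 0 units in the same order. THP_1 was then no longer apart from K562 or HL60, and it was apart from the MOLM13-labelled library. Exon 1 was the exon with most signal in THP_1 and was listed at 0 in K562. Of the words within exon 1, 41.7% were found in other genes.

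Little signal was listed on the named pseudogenes of FTH1. The 25 genes named FTH1P held 127 aligned bases together in K562, 1374 in THP_1, 1543 in the MOLM13-labelled library and 142 in HL60, against 0, 15116, 9127 and 1946 for FTH1. FTH1P22 was the 1 pseudogene of FTH1 with 600 or more aligned bases, 620 in the MOLM13-labelled library. FTLP3, with 1102 in the same library, was the 1 such pseudogene among 16 of FTL. In K562, HBA1 and HBA2, which encode the same alpha globin, were listed at 0 while HBZ of the same cluster stood at 3623 scaled TPM. Of the gamma globin genes, HBG1 stood at 404 in K562 and HBG2 was listed at 0. FTH1 also shares 1267 exon bases with BEST1 on the opposite strand, which was listed at 0 in every line. How the submitters treated reads that match several genes is not given in the sources used here, and its part in the FTH1 values was not tested.

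**Figure D3:**
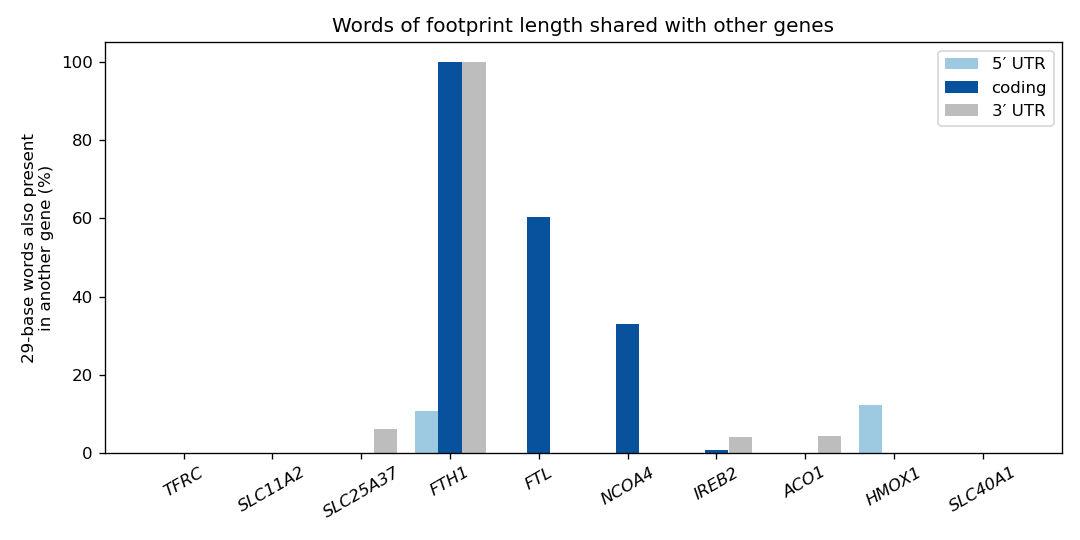
Percent of 29-base words (vertical) of the 5′ UTR, coding region and 3′ UTR of the main coding transcript of each gene (horizontal) that are also found in a transcript of another gene on either strand. Genes that overlap on the opposite strand are not set aside. FTH1 stands at 100% in its coding region and 3′ UTR, FTL at 60.4% and NCOA4 at 33.0% in the coding region, and no coding region of the other genes is above 0.663%.

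NCOA4 encodes the receptor that delivers ferritin to lysosomes, where its iron is released. It stood at 49.3 scaled TPM in K562, 98.9 in THP_1, 45.9 in the MOLM13-labelled library and 134 in HL60. The lines thus formed a higher group of HL60 and THP_1 and a lower one of K562 and the MOLM13-labelled library, with 2.92-fold from highest to lowest and no pair past the size rule. Coverage of its last exon, nearly all 3′ UTR, was between 0.0119 and 0.0250 of that of its coding exons in the 4 lines. Of its coding words, 33.0% were found in other genes.

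The 2 ferritin subunits were read in unequal amounts within each library. FTH1 stood at 0.146 of FTL in THP_1, 0.130 in the MOLM13-labelled library and 0.0123 in HL60, by deposited TPM. On coding-only exons this ratio was 0.0425 in THP_1, 0.265 in the MOLM13-labelled library and 0 in HL60. TFRC stood at 2.53 times FTL in K562, 0.679 in THP_1, 1.48 in the MOLM13-labelled library and 2.25 in HL60 by deposited TPM. On coding-only exons it stood at 4.60, 1.51, 3.32 and 5.79 times FTL in the same order. THP_1 had the lowest ratio by either measure, but whether the receptor was below the light ferritin subunit there turned with the measure. TFRC stood at 4.64 times FTH1 in THP_1, 11.4 in the MOLM13-labelled library and 183 in HL60 by deposited TPM. By coding-only exons it stood at 35.5 times FTH1 in THP_1 and 12.6 in the MOLM13-labelled library, in the opposite order, and every ratio to FTH1 carries the limits on that gene given above.

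**Figure D4:**
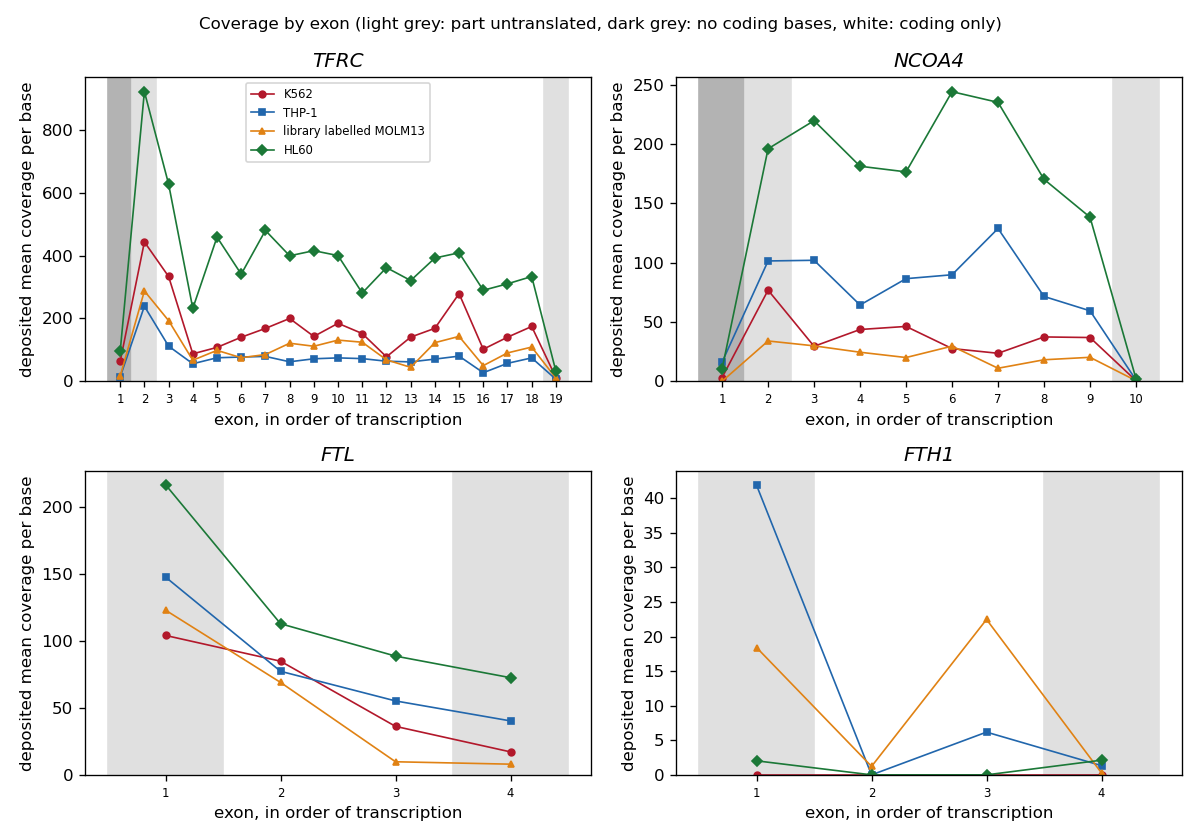
Deposited mean coverage per base (vertical, not scaled between libraries) of each exon in order of transcription (horizontal) for TFRC, NCOA4, FTL and FTH1, with 1 line per library and grey bands for exons that are partly or wholly untranslated. TFRC and NCOA4 fall to near 0 in their last exon, FTL falls from exon 1 to exon 4, and FTH1 has its highest value in exon 1 in THP_1.

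IREB2 and ACO1 encode the iron regulatory proteins IRP2 and IRP1, the former degraded when iron is plentiful and the latter turned into a cytosolic aconitase by an iron-sulfur cluster. IREB2 stood at 44.8 scaled TPM in K562, 37.0 in THP_1, 33.0 in the MOLM13-labelled library and 22.5 in HL60. Its range was 1.99-fold, with no pair past the size rule. ACO1 stood at 11.3, 7.56, 21.8 and 2.76 in the same order. It was 7.90-fold higher in the MOLM13-labelled library than in HL60, the 1 ACO1 pair past the rule, which rests on that library. IREB2 was above ACO1 in every line, 3.98-fold in K562, 4.89-fold in THP_1, 1.51-fold in the MOLM13-labelled library and 8.16-fold in HL60 by deposited TPM. By coverage of coding-only exons it was 2.73-fold, 1.90-fold, 1.28-fold and 5.02-fold above in the same order. HL60 had the lowest level of both genes.

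Coverage of the last IREB2 exon, with the 3′ UTR match, was 0.0363 of the coding median in K562, 0.0366 in the MOLM13-labelled library and 0.0504 in HL60. In THP_1 the estimates put 75.9% of IREB2 aligned bases on ENST00000558570, annotated for nonsense-mediated decay and 2917 bases long against 6324 for the main coding transcript, and 23.9% on coding transcripts, against 99.4% or more in the other lines. That transcript had a coverage of 208 in its first exon and a median of 14.1 over its inner exons in THP_1. By coverage of coding-only exons, summed over transcripts, IREB2 stood at 40.2, 15.3, 35.9 and 18.4 scaled units in K562, THP_1, the MOLM13-labelled library and HL60. THP_1 then moved from the second highest line to the lowest.

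HMOX1 encodes heme oxygenase 1, which breaks heme into biliverdin, carbon monoxide and iron. It stood at 79.1 scaled TPM in K562, 18.0 in THP_1, 91.5 in the MOLM13-labelled library and 9.25 in HL60. K562 and the MOLM13-labelled library were high and THP_1 and HL60 low. K562 was 4.39-fold above THP_1 and 8.56-fold above HL60, and the MOLM13-labelled library was 5.07-fold above THP_1 and 9.90-fold above HL60. The difference between K562 and THP_1, 2.07 log2 units, lay just inside the size rule. By coverage of coding-only exons it was 58.1, 16.1, 51.6 and 6.94 scaled units in K562, THP_1, the MOLM13-labelled library and HL60, and THP_1 was then no longer apart from K562 or from the MOLM13-labelled library. In the latter the estimates put all HMOX1 signal on retained intron transcripts, 92.9% of it on ENST00000481190, against 98.8% or more on coding transcripts in the other lines. That transcript shares the inner exons of the coding one and differs mainly in a longer first exon, where coverage was 56.2.

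SLC40A1 encodes ferroportin, the iron exporter of the cell surface. It stood at 10.4 scaled TPM in K562, 2.02 in THP_1 and 2.33 in the MOLM13-labelled library and was listed at 0 in HL60, the deepest library. K562 was 4.48-fold above the next line, while THP_1, at 1.69 to 2.39, and the MOLM13-labelled library, at 1.86 to 2.87, overlapped in their counting intervals. The difference between K562 and HL60 was 3.51 on the log2(scaled TPM + 1) scale. Those of K562 from THP_1 and from the MOLM13-labelled library, 1.92 and 1.78, fell just under the rule, and by coverage of coding-only exons the former passed it. In THP_1, 50.8% of its aligned bases lay in exon 1, which holds the 5′ UTR and the element. The share was 15.6% in K562 and 16.1% in the MOLM13-labelled library. The THP_1 share rests on 2008 aligned bases in that exon.

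The other iron genes were read from lists of the pathway, by the same rule and beside the same background of 36.6% apart in any pair. In the 3 pairs without the MOLM13-labelled library, where the background was 28.6%, the counts were 1 of 10 uptake genes (TFR2), 1 of 5 chaperones and storage genes, 4 of 12 genes of the regulatory list, 3 of 14 mitochondrial genes, 3 of 12 heme genes and 1 of 3 export genes. Of the uptake and endosome genes with at least 600 aligned bases in a line, 4 of 11 were apart. TFR2, the second transferrin receptor, stood at 31.0 scaled TPM in K562 and was listed at 0 in the other 3 lines. MCOLN1, an endolysosomal channel that passes iron, stood at 15.0 in K562, 3.50 in THP_1 and 3.82 in HL60 and was listed at 0 in the MOLM13-labelled library. HFE, which binds the transferrin receptor, was above 0 only in the MOLM13-labelled library, at 5.75. STEAP1, of the ferrireductase family, stood at 11.7 there and 1.38 in THP_1 and was listed at 0 in K562 and HL60. In this list, 1 of 9 genes tested between K562 and THP_1 was apart and higher in K562, beside 6.39% of protein-coding genes. The count apart and higher in THP_1 was 0, beside 13.7%. The median of K562 minus THP_1 was -0.33 log2 units beside -0.14 over all protein-coding genes.

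Among cytosolic chaperones and storage genes 1 of 5 was apart. This was PCBP2, an iron chaperone and RNA-binding protein, at 661 scaled TPM in K562, 119 in THP_1, 177 in the MOLM13-labelled library and 181 in HL60. Of the genes that control the iron regulatory proteins or carry other elements, 5 of 12 were apart. FBXL5, the ubiquitin ligase subunit that senses iron and marks IRP2 for destruction, stood at 40.9 in K562, 76.6 in THP_1, 9.35 in the MOLM13-labelled library and 20.7 in HL60. Its highest level was in THP_1 and its lowest in the MOLM13-labelled library. NUBP1, an assembly factor of cytosolic iron-sulfur clusters, was listed at 0 in K562 and stood at 47.6, 42.6 and 52.9 in the other lines. EPAS1, a hypoxia-inducible factor with an element in its 5′ UTR, stood at 7.82, 13.3, 19.1 and 0.727 in K562, THP_1, the MOLM13-labelled library and HL60. CDC14A, a phosphatase with an element in its 3′ UTR, was listed at 0 in K562 and stood at 5.40, 1.66 and 1.12 in the other lines. The remaining 1, CDC42BPA, lies outside the rule for named genes. Between K562 and THP_1, 1 of 12 genes of this list was apart and higher in K562, beside 6.39% of protein-coding genes. Apart and higher in THP_1 were 2, beside 13.7%, and the median of K562 minus THP_1 was -0.39 log2 units. For the chaperones and storage genes the counts were 1 and 0 of 5, beside the same shares. Their median was -0.76, beside -0.14 over all protein-coding genes.

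Of the mitochondrial genes 5 of 14 were apart. The ferredoxin FDX1 was listed at 0 in K562 and stood at 3.08 scaled TPM in THP_1, 11.7 in the MOLM13-labelled library and 6.12 in HL60. FDX2, the ferredoxin of iron-sulfur cluster assembly, stood at 20.8 in K562, 2.84 in THP_1 and 10.1 in HL60 and was listed at 0 in the MOLM13-labelled library. ABCB8, a mitochondrial transporter, stood at 8.16, 3.99 and 4.04 in K562, THP_1 and HL60 and was listed at 0 in the MOLM13-labelled library. Between K562 and HL60, 0 of 14 genes were apart and higher in K562, beside 9.04% of protein-coding genes. Apart and higher in HL60 were 2, beside 11%. The median of K562 minus HL60 was -0.34 log2 units beside 0.06 over all protein-coding genes. NUBP1 and FDX1 are used by most cells, so a value of 0 is given as listed and not as absence. ISCA2, also apart, lies outside the rule for named genes.

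Heme handling held 3 genes apart of 12. All 3 were higher in K562 than in HL60, beside 9.04% of protein-coding genes, and 0 were lower, beside 11%. BLVRB, a biliverdin reductase of red cells, stood at 475 scaled TPM in K562, 101 in THP_1, 78.2 in the MOLM13-labelled library and 20.5 in HL60. BLVRA, the other biliverdin reductase, stood at 115, 93.7, 65.7 and 18.8. Both reductases had their highest level in K562 and their lowest in HL60. SLC46A1, a carrier of heme and folate, stood at 13.7 in K562, 0.530 in THP_1, 1.94 in the MOLM13-labelled library and 0.826 in HL60. The median of K562 minus HL60 over the list was 0.45 log2 units beside 0.06 over all protein-coding genes. Among genes of iron export 1 of 3 was apart: HEPH, a copper oxidase that partners ferroportin, stood at 22.5 in K562 and 0.304 in HL60 and was listed at 0 in the other lines.

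**Figure D5:**
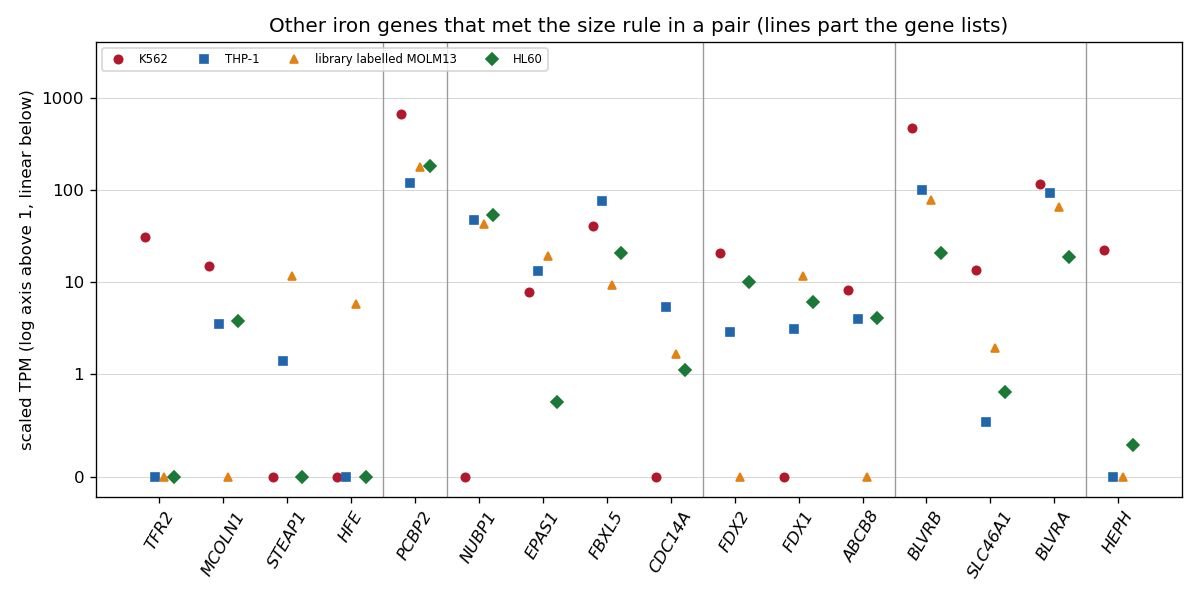
Scaled TPM (vertical, logarithmic above 1 and linear below) of the named genes of the other iron lists (horizontal) in the 4 libraries, with 1 point per library and vertical lines between the lists, from uptake at the left to export at the right. TFR2, BLVRB and HEPH were highest in K562, at 31.0, 475 and 22.5, while NUBP1 and FDX1 were listed at 0 there.

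The genes whose profile over the 4 lines was most like that of TFRC were STRAP, SLC5A6 and FBL, by the root mean square difference of centred log2(scaled TPM + 1) over 4 values. The differences were 0.116, 0.128 and 0.144 log2 units, and 22 of 3420 candidate genes were within 0.25. FBL stood at 526 scaled TPM in K562, 169 in THP_1, 399 in the MOLM13-labelled library and 604 in HL60. With 4 values a close match is easily met, and nothing is read from it. For FTH1 the nearest gene, H2BC3, was 0.871 units away, and 0 of 3421 candidates were within 0.25. FTH1 itself was listed at 0 in K562 and stood at 1.76 in HL60. Genes as low as FTH1 in those lines could not be candidates, so the lack of a close match says nothing about its profile.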

How the data were processed

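Footprint libraries were prepared with an ARTseq kit and rRNA depletion, per the labels' protocols. Trim Galore 0.6.6, STAR 2.7.8a, Bowtie2 2.4.2 and, for the estimates, StringTie 2.1.5 were run on hg38, per the submitters' processing notes. StringTie estimated known transcripts of GENCODE release 37 with no strand option, per the file headers, so reads of overlapping genes on opposite strands were not separated. The deposited values are TPM, FPKM and coverage per transcript and coverage per exon. Read counts were not used here.

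Gene TPM is the sum over transcripts, scaled by the median ratio of the 3751 genes that reach a TPM of 10 in every library, with factors of 0.837 for K562, 1.01 for THP_1, 1.12 for the MOLM13-labelled library and 1.05 for HL60. Aligned bases are coverage times length. The files name no symbol for 12536 genes, of which 12499 were named by gene ID. GENCODE release 29, also on hg38, gave gene types, coding regions and sequences. Words of 29 bases were matched exactly on both strands.

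Named genes are all 10 members, up to 4 genes apart in a pair from each other list, pseudogenes with at least 600 aligned bases, and the 3 nearest profiles to TFRC and FTH1. Of the genes the rule names, 1 is not reported here. The genes and lists were chosen with earlier results of these data known. Alternatives were other scalings, pseudocounts of 0.1 and 5, log2 differences of 1 and 3, minimums of 0 and 3000 aligned bases, pseudogene signal and shares of aligned bases. Coding-only coverage, leaving out FTH1 and scaling or counting without the MOLM13-labelled library were added after seeing the data. The tools were Matplotlib 3.10.9, NumPy 2.4.6, SciPy 1.17.1 and pandas 2.3.3 in Python 3.11.15.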

Additional observations from a re-analysis of the deposited data

How the results depend on the processing

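No paired analysis was possible because each line has 1 library. All 10 differences past the size rule kept their sign under every scaling, pseudocount and coverage tried. Of these, 9 also passed it with deposited TPM, 10 with TPM rescaled over protein-coding genes, 10 with aligned bases not divided by length, 10 with a pseudocount of 0.1, 6 with a pseudocount of 5 and 6 with coverage of coding-only exons. All 5 that do not involve the MOLM13-labelled library passed when scaling left it out. Relative to the other lines, deposited TPM put the median gene at -0.38 log2 units in K562 and 0.23 in the MOLM13-labelled library, and rescaling over protein-coding genes at 0.20 in K562 and -0.20 in THP_1.

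Counts of genes apart changed as follows, and the cause was not tested beyond the construction of each setting. The share of all protein-coding genes apart was computed for the main setting only. The changed counts thus have no background beside them. Between K562 and THP_1 the count of 2 became 1 with deposited TPM, 4 with TPM rescaled over protein-coding genes, 3 with aligned bases and with a pseudocount of 0.1, 1 with a pseudocount of 5, 1 with coding-only exons (SLC40A1), 5 and 1 at log2 differences of 1 and 3, and 1 without FTH1. Between K562 and the MOLM13-labelled library the count of 1 became 2 with a pseudocount of 0.1, with aligned bases and with TPM rescaled over protein-coding genes, 3 at a log2 difference of 1, and 0 without FTH1. Between K562 and HL60 the count of 2 became 4 with TPM rescaled over protein-coding genes, 3 and 1 with pseudocounts of 0.1 and 5, and 7 and 1 at log2 differences of 1 and 3. Between THP_1 and the MOLM13-labelled library the count of 1 became 4 and 0 at log2 differences of 1 and 3. Between THP_1 and HL60 the count of 1 became 2 with TPM rescaled over protein-coding genes, with aligned bases and with a pseudocount of 0.1, 0 with a pseudocount of 5, with coding-only exons and without FTH1, and 4 at a log2 difference of 1. Between the MOLM13-labelled library and HL60 the count of 3 became 4 with TPM rescaled over protein-coding genes, with aligned bases and with a pseudocount of 0.1, 2 with a pseudocount of 5 and without FTH1, and 5 and 2 at log2 differences of 1 and 3. The other settings gave the main counts, with FTH1 in place of HMOX1 between THP_1 and the MOLM13-labelled library on coding-only exons.

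With pseudogene signal added, FTH1 stood at 0.00379 of FTL in K562, 0.178 in THP_1 and 0.173 in the MOLM13-labelled library, and TFRC at 3.80 times FTH1 in THP_1 and 8.21 in the MOLM13-labelled library. With aligned bases over the length of the main transcript these ratios of TFRC to FTH1 were 4.03 and 9.01. By coding-only exons FTH1 stood at 0.0425 of FTL in THP_1, 0.265 in the MOLM13-labelled library and 0 in HL60, and TFRC at 35.5 times FTH1 in THP_1. No such ratio of TFRC to FTH1 can be had in HL60, where FTH1 is listed at 0 in those exons. The SLC11A2 share on transcripts with the element was 11.5% in K562, 75.0% in THP_1 and 75.7% in HL60 by aligned bases. Depth limits the lowest values most: a gene at 600 aligned bases rests on 20.7 footprint equivalents.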
